A study of Triticum aestivum with 36 samples.

Results

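Peroxidase 66, peroxidase 1 and the peroxiredoxin PER1 were followed through seed development of bread wheat with 5 of the 61290 probe sets of the Affymetrix Wheat Genome Array. The members were the 3 probe sets that the study had annotated as a peroxidase, and the 2 probe sets that the array annotation assigns to PER1. Peroxidase 66 was read by Ta.23366.2.S1_at and Ta.23366.2.S1_x_at, peroxidase 1 by Ta.10140.1.S1_at, and PER1 by Ta.14503.1.S1_at and Ta.24688.2.S1_a_at. All 5 were among the 60130 probe sets kept for testing. RNA of whole developing caryopses was hybridized to 36 arrays, 3 biological replicates of each of 4 varieties sampled 7, 14 and 28 days past anthesis (DAA, days after anthesis). The good varieties for chapatti, an unleavened flat bread, were C306 and Lok1, and the poor ones were Sonalika and WH291, so that each class of quality holds 2 varieties and its 6 arrays at a stage are replicates of varieties, not of quality. The varieties are cultivars grown in 3 replications with no treatment, and each RNA came from about 10 caryopses taken from the middle of spikes.

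Peroxidases of the plant secretory pathway are haem enzymes that use hydrogen peroxide to oxidise phenolic compounds, and they take part in the building of cell walls and of lignin. Peroxiredoxins also remove peroxides, but through a cysteine instead of haem, and in barley the related PER1 is known from the embryo and the aleurone of the developing grain. In wheat flour, peroxidase activity is known to couple phenolic acids of the arabinoxylans during dough mixing. The names of the 2 peroxidases are those of the study's best protein matches, and peroxidase 66 was named after a protein of Triticum urartu.

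The values are RMA signals in log2, from which the authors subtracted the median that the probe set had across all arrays. A value of 0 is therefore the middle array of that probe set, levels cannot be compared between probe sets, and whether a low value lay above the background of the array is not known. In whole caryopses, fewer cells of a type cannot be told apart from less RNA per cell. Groups were compared with limma, and adjusted p is the Benjamini-Hochberg value over all 60130 probe sets at a threshold of 0.05. Of the 5 probe sets, 4 came from the study's list of 236 probe sets with at least a 10-fold difference (3.32 in log2) between good and poor varieties on these same arrays. For these 4 the difference between good and poor varieties is given as a description without a test. Their steps between stages use the same arrays and are not wholly independent of that choice. The exception is Ta.24688.2.S1_a_at, which was not on the list.

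Some arrays went against their labels. Apart from the members, 83 probe sets gave clear on or off calls in each group, and over these the 3 stages of a variety had the same calls at 82 or 83 probe sets, except for the arrays labelled Lok1 7 DAA and WH291 14 DAA. The arrays labelled WH291 14 DAA had the calls of Lok1 at 14 DAA at all 83 probe sets and those of WH291 at 7 DAA at 58. The arrays labelled Lok1 7 DAA shared 46 calls with Lok1 at 14 DAA and 53 with WH291 at 7 DAA. The main results that rest on these 6 arrays are given also without them. The good class at 7 DAA is then C306 alone, and the poor class at 14 DAA is Sonalika alone. Control RNA also differed between groups, since the labelling controls (dap, lys, phe and thr) lay between -2.97 and -2.80 at 7 DAA in Lok1, Sonalika and WH291 and at 0.86 in C306, as means over arrays of the median of 12 probe sets. At 28 DAA they were 2.43 in Lok1, -1.09 in C306, -0.38 in Sonalika and 1.80 in WH291, and the hybridization control bioB was -3.13 in Lok1, 1.21 in C306, -3.0 in Sonalika and -3.13 in WH291. The other hybridization controls (bioC, bioD and cre) differed less at 28 DAA, with 0.05 in Lok1, 0.82 in C306, -0.10 in Sonalika and -0.23 in WH291. The part of the control RNA in the results was not tested. The stages followed the markers of the grain. Of 59 endosperm probe sets (gliadins, glutenins and avenins) 53 were higher at 28 than at 7 DAA. Of 12 probe sets listed for the maturing embryo and aleurone, a list that includes all globulins, all 12 were. Of 18 histone probe sets 1 was, and of 28 probe sets of photosynthesis genes 5 were.

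Peroxidase 66 was high in C306 at all 3 stages and low in Sonalika at all 3 stages. Its large changes between stages in Lok1 and WH291 came from the arrays labelled Lok1 7 DAA and WH291 14 DAA, which went against their labels. With Ta.23366.2.S1_at, C306 had values of 1.47, 0.78 and 2.98 at 7 DAA, of 2.17, 2.60 and 3.52 at 14 DAA and of 4.28, 4.54 and 4.37 at 28 DAA. In Lok1 they were -2.63, -2.93 and -2.48 at 7 DAA, 3.36, 3.40 and 4.16 at 14 DAA and 2.96, 2.78 and 3.76 at 28 DAA. All C306 arrays and the later Lok1 arrays were thus above the median of the probe set, and the arrays labelled Lok1 7 DAA were far below it. Sonalika had -1.86, -1.58 and -2.20 at 7 DAA, -2.69, -2.24 and -2.38 at 14 DAA and -1.31, -0.78 and -2.21 at 28 DAA. WH291 had -1.70, -1.72 and -1.95 at 7 DAA, 2.69, 1.32 and 2.57 at 14 DAA and -1.92, -3.17 and -3.37 at 28 DAA. The poor varieties were low throughout except on the arrays labelled WH291 14 DAA.

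**Figure D1:**
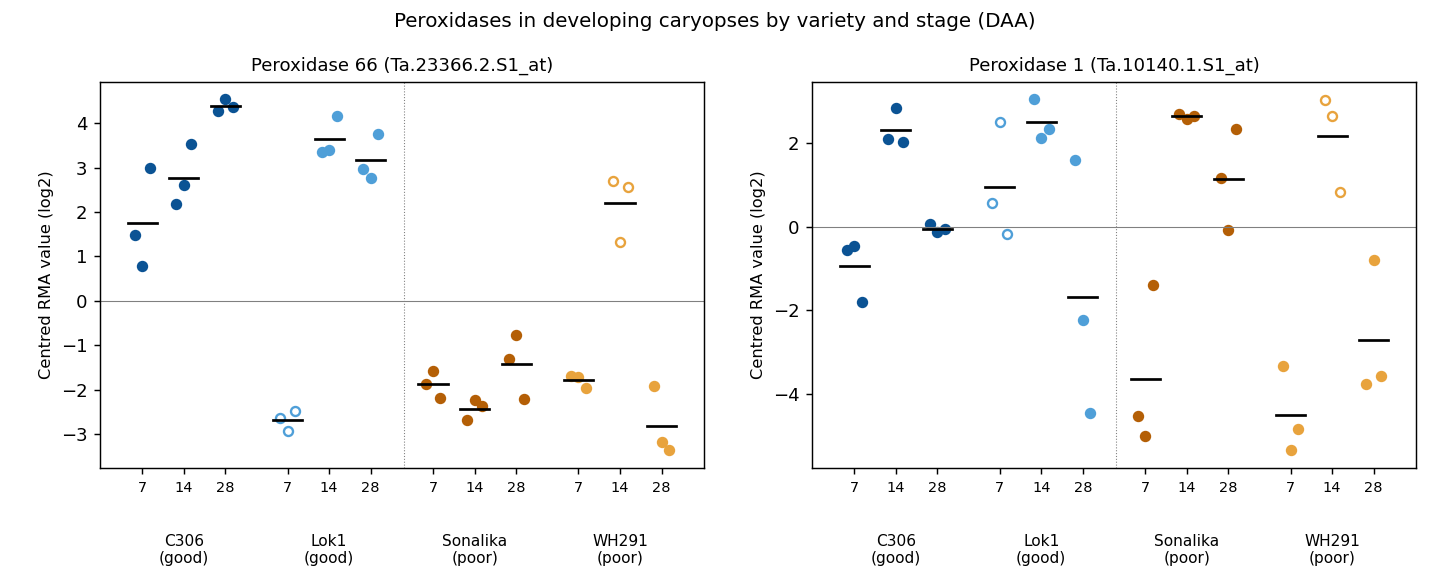
Centred RMA values (log2, y axis) of peroxidase 66 and peroxidase 1 on each array by variety and stage (DAA, x axis), with good varieties left of poor ones, a bar at the mean of 3 arrays, and open circles for the arrays labelled Lok1 7 DAA and WH291 14 DAA. Peroxidase 66 had no array between -0.78 and 0.78. By the labels, the mean of peroxidase 1 was highest at 14 DAA in each variety, in WH291 on arrays that went against their label.

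The 12 means of peroxidase 66 fell into a high and a low set. The lowest of the high set was C306 at 7 DAA with 1.75 ± 1.13 (SD, n = 3) and the highest of the low set was Sonalika at 28 DAA with -1.43 ± 0.72. Between these neighbours the means lay 3.18 apart and no array overlapped. C306 at 28 DAA was the highest group, with 4.40 ± 0.13, and its arrays lay above those of the next group, Lok1 at 14 DAA. Of the 11 pairs of neighbours in the order of means, 8 had overlapping arrays. The same calls as those of peroxidase 66, on in C306, in Lok1 at 14 and 28 DAA and on the arrays labelled WH291 14 DAA and off in the other groups, were found in 9 of the 83 on or off probe sets.

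During seed development peroxidase 66 rose in C306 and did not pass the test in Sonalika. The step of C306 between 7 and 28 DAA was 2.65 (SE 0.45, adjusted p = 3.26e-05) with Ta.23366.2.S1_at and 2.62 (SE 0.44, adjusted p = 2.37e-05) with Ta.23366.2.S1_x_at, about 6.28-fold and 6.16-fold, beside 29.8% of all probe sets that passed this comparison. Most of it lay in the later interval, since the step between 14 and 28 DAA was 1.63 (adjusted p = 0.0113, beside 17.5% of all probe sets) and the step between 7 and 14 DAA was 1.02 (adjusted p = 0.131, beside 17.3%). The later step did not pass with the arrays of C306 alone (adjusted p = 0.0538) or without C306 14 DAA replicate 1 (1.33, adjusted p = 0.0841), and the earlier one passed without C306 7 DAA replicate 3 (1.64, adjusted p = 0.0125). With Ta.23366.2.S1_x_at the later step was 2.00 (adjusted p = 0.00152). In Sonalika the steps were -0.56 from 7 to 14 DAA, 1.00 from 14 to 28 DAA and 0.45 from 7 to 28 DAA, with adjusted p between 0.142 and 0.518. Quantile normalization turned the first 2 into calls in opposite directions, -3.94 (adjusted p = 1.94e-06) and 3.94 (adjusted p = 3.2e-06).

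The remaining large steps of peroxidase 66 all involved the arrays that went against their labels. Lok1 rose by 6.32 between 7 and 14 DAA (SE 0.45, adjusted p = 2.89e-11, beside 19.9% of all probe sets) and by 5.85 between 7 and 28 DAA (adjusted p = 3.77e-11, beside 33.6%). WH291 rose by 3.99 between 7 and 14 DAA (adjusted p = 1.1e-07, beside 28.6%) and fell by 5.02 between 14 and 28 DAA (adjusted p = 1.33e-09, beside 27.0%). Without those 6 arrays 2 steps could be made in these varieties. Lok1 then differed by -0.47 between 14 and 28 DAA (adjusted p = 0.490) and WH291 by -1.03 between 7 and 28 DAA (adjusted p = 0.0765). With all arrays the step of WH291 between 7 and 28 DAA had an adjusted p of 0.0776, and it passed when 1 array was left out, at 0.0158 without WH291 28 DAA replicate 1 (-1.48) and at 0.0416 without C306 7 DAA replicate 3.

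Both good varieties were compared with each other, and likewise both poor ones, since these pairs played no part in the choice of the probe sets. Peroxidase 66 was higher in C306 than in Lok1 at 7 DAA by 4.43 (SE 0.45, adjusted p = 4.81e-08, beside 9.39% of all probe sets), and lower in Sonalika than in WH291 at 14 DAA by 4.63 (adjusted p = 3.15e-08, beside 8.38%). Each of these comparisons has the doubtful arrays on one side. At the stages without them, C306 minus Lok1 was -0.87 at 14 DAA (adjusted p = 0.314, beside 6.48%) and 1.23 at 28 DAA (95% interval 0.30 to 2.16, adjusted p = 0.0763), and Sonalika minus WH291 was -0.09 at 7 DAA (95% interval -1.02 to 0.84, adjusted p = 0.957, beside 11.4%) and 1.39 at 28 DAA (adjusted p = 0.0679). Tested as a difference of steps, C306 and Lok1 differed from 7 to 14 DAA (-5.30, adjusted p = 2.22e-06, beside 3.94%) and from 14 to 28 DAA (2.10, adjusted p = 0.0492, beside 5.81%). The call on the later interval was lost in 25 of 36 fits that left out 1 array each, and with Ta.23366.2.S1_x_at the difference did not pass (1.91, adjusted p = 0.0665). Sonalika and WH291 differed in both intervals too (-4.54, beside 6.59%, and 6.02, beside 5.25%), and of these 4 differences only the one of 2.10 does not use the doubtful arrays. The calls at 28 DAA depended on single arrays. C306 minus Lok1 at 28 DAA passed without C306 7 DAA replicate 3 (adjusted p = 0.0397). Sonalika minus WH291 at 28 DAA passed without C306 7 DAA replicate 2 (adjusted p = 0.0497) or 3 (adjusted p = 0.0332), Sonalika 28 DAA replicate 3 (1.78, adjusted p = 0.0356) or WH291 28 DAA replicate 1 (1.84, adjusted p = 0.0203).

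As a description, at 28 DAA peroxidase 66 averaged 3.78 ± 0.75 in C306 and Lok1 and -2.13 ± 1.02 in Sonalika and WH291 (SD, n = 6 each), a difference of 5.91 (SE 0.88) or about 60.0-fold. The arrays of the good varieties lay between 2.78 and 4.54 and those of the poor varieties between -3.37 and -0.78, without overlap. Setting each good against each poor variety at 28 DAA gave 4 differences, between 4.60 for Lok1 minus Sonalika and 7.22 for C306 minus WH291. At 14 DAA the difference was 3.32 (SE 0.88), the value closest to the limit of 10-fold. It was 5.64 without the arrays labelled WH291 14 DAA, which sets the good varieties against Sonalika alone. At 7 DAA it was 1.37 (SE 0.88) and 3.58 without the arrays labelled Lok1 7 DAA, which sets C306 alone against the poor varieties. Without C306 7 DAA replicate 3 the difference at 7 DAA was 0.68. With Ta.23366.2.S1_x_at the differences were 1.25, 2.47 and 4.85 at 7, 14 and 28 DAA. No test is given for these values, and among all probe sets 12.9% passed the test of good minus poor at 7 DAA, 0.0233% at 14 DAA and 2.18% at 28 DAA.

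**Figure D2:**
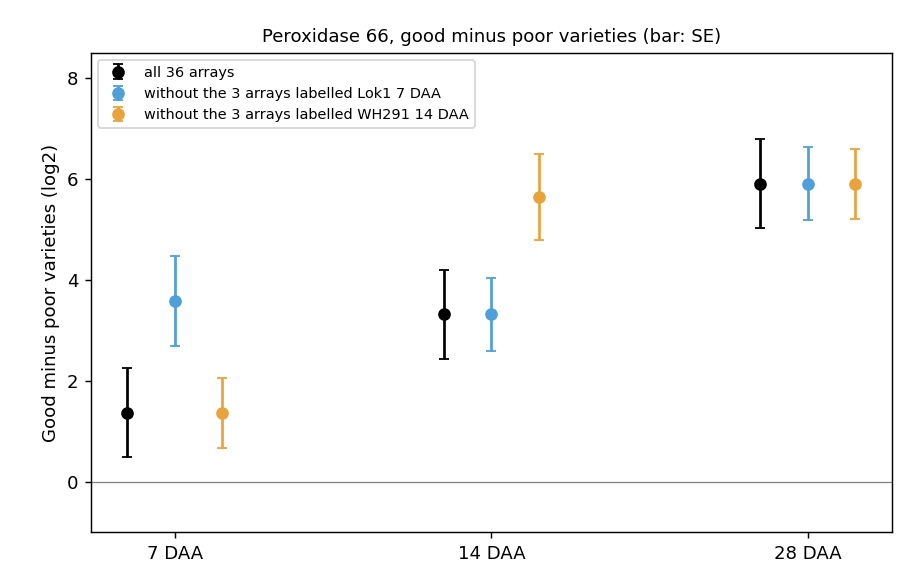
Difference between good and poor varieties in peroxidase 66 (Ta.23366.2.S1_at, log2, y axis) at each stage (x axis), with all 36 arrays and without the arrays labelled Lok1 7 DAA or WH291 14 DAA; bars are standard errors. The difference at 7 DAA was 1.37 with all arrays and 3.58 without those labelled Lok1 7 DAA, that at 14 DAA was 3.32 and 5.64 without those labelled WH291 14 DAA, and that at 28 DAA was 5.91. Without those arrays the good class at 7 DAA is C306 alone and the poor class at 14 DAA is Sonalika alone.

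Both probe sets of peroxidase 66 followed each other closely, with a Pearson r of 0.987 over the 36 arrays and 0.989 over the 30 arrays without the doubtful ones. They share a target and are not independent measurements, and the suffix _x marks a probe set with probes that may bind other transcripts. Other probe sets of the array with the same stem in their ID have no name in the sources used here and behaved differently. Ta.23366.1.S1_at had an r of -0.40 with Ta.23366.2.S1_at, and its highest mean was 2.71 ± 0.86 in Sonalika at 28 DAA (SD, n = 3). It rose in Sonalika by 1.59 between 14 and 28 DAA (adjusted p = 0.000236, beside 17.4% of all probe sets), and at 28 DAA it was 3.21 higher in Sonalika than in WH291 (adjusted p = 7.98e-09, beside 6.14%). With Ta.23366.1.S1_x_at the step was 0.62 and did not pass (adjusted p = 0.0625), and the difference at 28 DAA was 1.76 (adjusted p = 6.08e-06). Ta.23366.3.A1_at had an r of -0.11 with Ta.23366.2.S1_at. How many transcripts the stem stands for is not known from the files.

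By the labels, peroxidase 1 had its highest mean at 14 DAA in each of the 4 varieties. In WH291 this mean comes from the doubtful arrays labelled WH291 14 DAA, and in Lok1 the mean at 7 DAA comes from doubtful arrays. Only in C306 and Sonalika are all 3 stages free of them. With Ta.10140.1.S1_at, C306 had -0.56, -0.46 and -1.82 at 7 DAA, 2.09, 2.83 and 2.02 at 14 DAA and 0.05, -0.14 and -0.05 at 28 DAA. Lok1 had 0.56, 2.50 and -0.19 at 7 DAA, 3.04, 2.12 and 2.34 at 14 DAA and 1.59, -2.23 and -4.45 at 28 DAA. The arrays of both varieties were close to each other at 14 DAA, and those of Lok1 at 28 DAA were spread over 6 log2 units. Sonalika had -4.54, -5.02 and -1.40 at 7 DAA, 2.69, 2.57 and 2.65 at 14 DAA and 1.16, -0.08 and 2.33 at 28 DAA. WH291 had -3.33, -5.36 and -4.85 at 7 DAA, 3.02, 2.64 and 0.83 at 14 DAA and -3.76, -0.80 and -3.58 at 28 DAA. At 7 DAA the poor varieties were thus low on 5 of 6 arrays, and Sonalika replicate 3 overlapped with C306.

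From 7 to 14 DAA the signal of peroxidase 1 passed the test in 3 of 4 varieties. It rose by 6.68 in WH291 (SE 1.05, adjusted p = 1.36e-05, 102-fold) and by 6.29 in Sonalika (adjusted p = 3.33e-05, beside 27.1% of all probe sets), by 3.26 in C306 (adjusted p = 0.0300), and in Lok1 the difference was 1.54 (95% interval -0.61 to 3.7, adjusted p = 0.351). The step of C306 did not pass without C306 7 DAA replicate 1 (3.46, adjusted p = 0.0555) or 3 (2.83, adjusted p = 0.125), or without C306 14 DAA replicate 2 (3.00, adjusted p = 0.109) or 3 (3.41, adjusted p = 0.0601). Steps of a good and a poor variety were not tested against each other, because the difference at 7 DAA had chosen the probe set. Within a class they did not pass: C306 minus Lok1 gave 1.72 (95% interval -1.33 to 4.77, adjusted p = 0.619) and Sonalika minus WH291 gave -0.39 (95% interval -3.44 to 2.66, adjusted p = 0.926). The steps of Lok1 and WH291 rest on the doubtful arrays, and those of C306 and Sonalika passed without them as well (adjusted p = 0.0292 and 4.62e-05).

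From 14 to 28 DAA peroxidase 1 fell by 4.88 in WH291 (adjusted p = 0.000642) and by 4.20 in Lok1 (adjusted p = 0.00302, beside 27.0% of all probe sets). The fall in WH291 uses the doubtful arrays labelled WH291 14 DAA and cannot be formed without them. In C306 the difference was -2.36 (adjusted p = 0.133) and in Sonalika -1.50 (adjusted p = 0.400, beside 17.4%). The fall in Lok1 did not pass without Lok1 28 DAA replicate 3 (-2.82, adjusted p = 0.0506) or with the arrays of Lok1 alone (adjusted p = 0.0520), and the difference in C306 passed with quantile normalization (-2.96, adjusted p = 0.0184), array weights (-2.81, adjusted p = 0.00177) and the arrays of C306 alone (adjusted p = 0.00139). Over the whole interval from 7 to 28 DAA, peroxidase 1 rose in Sonalika by 4.79 (adjusted p = 0.000627, beside 31.3%), while C306 differed by 0.90 (adjusted p = 0.590) and WH291 by 1.80 (adjusted p = 0.197). Lok1 differed by -2.65 (adjusted p = 0.0521), a step that uses doubtful arrays and that passed without Lok1 7 DAA replicate 3 (-3.23, adjusted p = 0.0338), Lok1 28 DAA replicate 1 (-4.30), Sonalika 7 DAA replicate 3 (adjusted p = 0.0364) or WH291 28 DAA replicate 2 (adjusted p = 0.0424). The poor varieties differed at 28 DAA, with Sonalika minus WH291 at 3.84 (SE 1.05, adjusted p = 0.0246, beside 6.14%), a call lost without Sonalika 28 DAA replicate 1 (3.83, adjusted p = 0.0893) or 3 (3.25, adjusted p = 0.142), without WH291 28 DAA replicate 1 (3.32, adjusted p = 0.108) or 3 (3.41, adjusted p = 0.115), and with the arrays of 28 DAA alone (adjusted p = 0.0901). C306 minus Lok1 was 1.65 at 28 DAA (adjusted p = 0.360) and 3.30 without Lok1 28 DAA replicate 1 (adjusted p = 0.0216).

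As a description, at 7 DAA peroxidase 1 averaged 0.01 ± 1.44 in C306 and Lok1 and -4.08 ± 1.49 in Sonalika and WH291 (SD, n = 6 each), a difference of 4.09 (SE 0.90) or about 17-fold. The difference was 3.14 without the arrays labelled Lok1 7 DAA, which leaves C306 alone as the good class, and 2.57 with quantile normalization of the arrays. Good minus poor was 0.01 at 14 DAA, or -0.23 without the arrays labelled WH291 14 DAA, and -0.08 at 28 DAA, where the near-zero value joins a high Sonalika with a low WH291. Without Sonalika the difference at 28 DAA was 1.84, and without WH291 it was -2.01.

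Peroxidase 1 was compared with all other probe sets over the 36 arrays. Among probe sets with a name in the sources used here, the highest Pearson r belonged to a 19 kDa globulin (0.977 and 0.972 with its 2 probe sets), a gamma-gliadin (0.964), an alpha-gliadin (0.961) and an avenin-like protein (0.961), which are prolamins or globulins that the endosperm deposits as reserves. These values lay between 0.960 and 0.981 over the 30 arrays without the doubtful ones. An r above 0.9 was found for 94 of 60129 probe sets, among them 48 of 325 with a name. Before the filter 333 probe sets had a name, 200 of them by a gene symbol and the rest only through the study's list. That list was chosen on good against poor varieties on these arrays, as peroxidase 1 was. The named matches here and below are therefore not an unbiased sample of genes. The correlations describe arrays that share varieties and stages. The endosperm markers moved the same way by the labels: the median over their 59 probe sets at 7 DAA was -1.17 in C306 and -0.20 on the doubtful arrays labelled Lok1, against -5.32 in Sonalika and -8.08 in WH291. At 14 DAA it lay between 0.54, on the doubtful arrays labelled WH291, and 1.07. These markers were matched by name, also through the study's list of differences between good and poor varieties. Their contrast at 7 DAA is thus no independent reading beside peroxidase 1. The part of the endosperm's amount in the values of peroxidase 1 was not tested.

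PER1 was low at 7 DAA and on a plateau at 14 and 28 DAA, as read by Ta.14503.1.S1_at. At 7 DAA the values were -5.34, -5.14 and -8.13 in C306 and -3.78, -0.92 and -7.37 in Lok1. The poor varieties had -9.44, -8.50 and -7.10 (Sonalika) and -8.63, -9.11 and -8.66 (WH291). At 14 and 28 DAA every array but one lay between -0.29 and 0.61. The exception was C306 14 DAA replicate 1 with -1.57, whose fellow arrays had 0.47 and 0.50. Lok1 7 DAA replicate 2, with -0.92, was the one array of 7 DAA that lay above an array of a later stage.

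**Figure D3:**
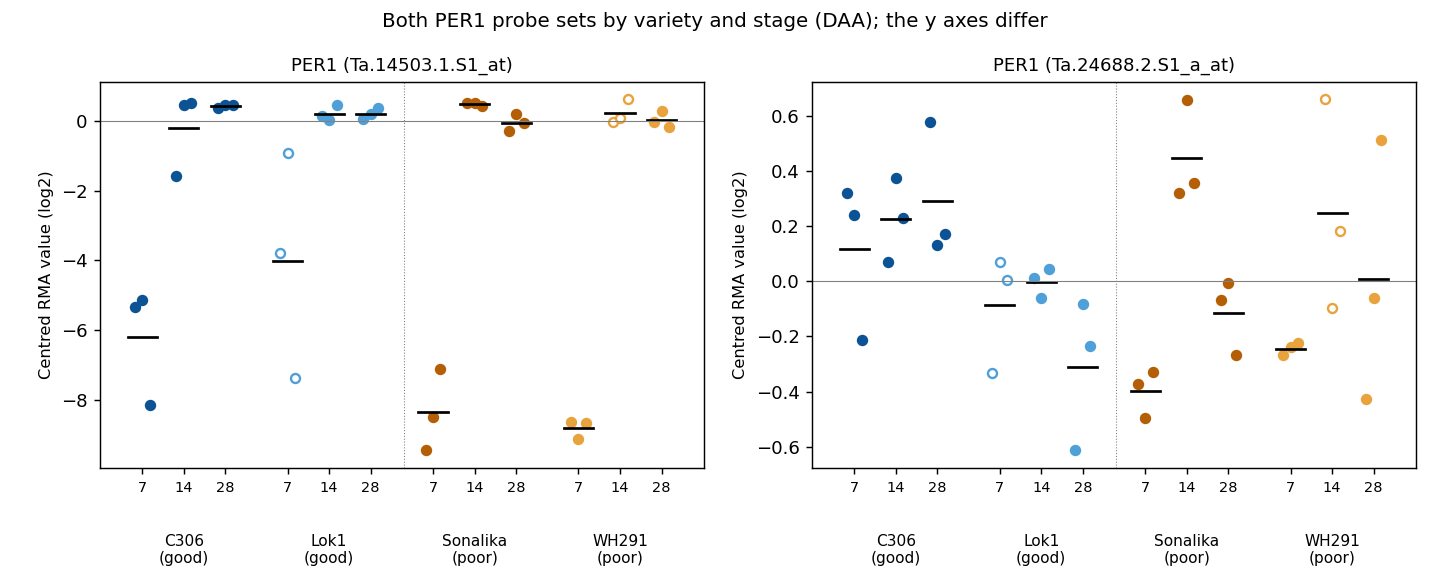
Centred RMA values (log2, y axis, with a scale of its own in each panel) of both PER1 probe sets on each array by variety and stage (DAA, x axis), with good varieties left of poor ones, a bar at the mean of 3 arrays, and open circles for the arrays labelled Lok1 7 DAA and WH291 14 DAA. Ta.14503.1.S1_at reached down to -9.44 at 7 DAA, while all values of Ta.24688.2.S1_a_at lay between -0.61 and 0.66.

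The step of PER1 from 7 to 14 DAA passed the test in each variety. With Ta.14503.1.S1_at it was 9.03 in WH291 (SE 0.89, adjusted p = 1.12e-08, 522-fold), 8.83 in Sonalika (adjusted p = 2.05e-08, 455-fold), 6.0 in C306 (adjusted p = 2.04e-05, 64.2-fold) and 4.23 in Lok1 (adjusted p = 0.000893, 18.8-fold). Without the doubtful arrays the steps of C306 and Sonalika also passed, and WH291 could be followed from 7 to 28 DAA, with a rise of 8.82 (adjusted p = 6.75e-12, and 3.38e-09 with all arrays, beside 37.0% of all probe sets). The rise in Lok1 did not pass with the arrays of Lok1 alone (adjusted p = 0.0570). From 14 to 28 DAA no variety passed, with differences of 0.63 in C306 and -0.00 in Lok1, and of -0.53 for Sonalika and -0.20 for WH291, and adjusted p between 0.725 and 1. With cyclic loess between arrays the step from 7 to 14 DAA became -0.19 for C306, -0.52 for Lok1, 0.96 for Sonalika and 1.22 for WH291, and none passed. That fit was made on the centred values, whose mean over arrays is not a signal level. It can take away a rise that many probe sets share, so it cannot decide how far these steps depend on the normalization.

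Within a class of quality no difference in Ta.14503.1.S1_at of PER1 passed the test with all arrays. C306 minus Lok1 at 7 DAA was -2.18 (95% interval -4.01 to -0.35, adjusted p = 0.136), and it passed without Lok1 7 DAA replicate 3 (-3.85, adjusted p = 0.000480). Sonalika minus WH291 at 7 DAA was 0.45 (95% interval -1.37 to 2.28, adjusted p = 0.861). The step of C306 minus that of Lok1 from 7 to 14 DAA was 1.77 (adjusted p = 0.521), and 3.44 without Lok1 7 DAA replicate 3 (adjusted p = 0.0271). Both of these comparisons of C306 with Lok1 have the doubtful arrays labelled Lok1 7 DAA on one side. As a description, at 7 DAA Ta.14503.1.S1_at averaged -5.11 ± 2.59 in C306 and Lok1 and -8.57 ± 0.80 in Sonalika and WH291 (SD, n = 6 each), a difference of 3.46 (SE 0.65) or about 11.0-fold, close to the 10-fold limit. It was 2.37 without the arrays labelled Lok1 7 DAA, under that limit and with C306 alone as the good class, 1.51 with quantile normalization and 1.61 with cyclic loess. At 14 and 28 DAA the differences were -0.35 and 0.33, and leaving out the arrays labelled WH291 14 DAA made the 14 DAA value -0.48.

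The second PER1 probe set, Ta.24688.2.S1_a_at, showed little of this. Its suffix _a marks probes shared by several transcripts, and both probe sets carry the gene ID 543108, LOC543108 in the RefSeq annotation of assembly IWGSC CS RefSeq v2.1. At 7 DAA its values were 0.32, 0.24 and -0.21 in C306 and -0.33, 0.07 and 0.00 in Lok1. Sonalika had -0.37, -0.50 and -0.33 and WH291 had -0.27, -0.24 and -0.22. All 36 values lay between -0.61 and 0.66, and neighbours in the order of its 12 means overlapped in 11 of 11 pairs. It rose in Sonalika from 7 to 14 DAA by 0.85 (SE 0.20, adjusted p = 0.00154, 1.80-fold). In C306 this step was 0.11, in Lok1 0.08 and in WH291 0.49, with adjusted p between 0.0617 and 0.834. The step of WH291 passed without WH291 14 DAA replicate 2 (0.67, adjusted p = 0.0204) and without WH291 28 DAA replicate 1 (adjusted p = 0.0424) or 3 (adjusted p = 0.0354).

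Good and poor varieties could be tested with Ta.24688.2.S1_a_at, which the study had not chosen. The difference was 0.34 at 7 DAA (95% interval 0.02 to 0.66, adjusted p = 0.168), -0.24 at 14 DAA (adjusted p = 0.822) and 0.04 at 28 DAA (95% interval -0.27 to 0.36, adjusted p = 0.965). The mean over the stages was 0.05 (SE 0.09, adjusted p = 0.820, beside 5.94% of all probe sets). At 7 DAA it passed with array weights (0.45, adjusted p = 0.0394). Without the arrays labelled Lok1 7 DAA the difference at 7 DAA was 0.44 (adjusted p = 0.177), and without those labelled WH291 14 DAA the difference at 14 DAA was -0.33 (adjusted p = 0.668). In these fits C306 alone stands for good at 7 DAA and Sonalika alone for poor at 14 DAA. The difference between C306 and Lok1 at 28 DAA was 0.60 (SE 0.20, adjusted p = 0.0423, beside 12.5% of all probe sets), and it did not pass in 5 of the 36 fits that left out 1 array each, without C306 28 DAA replicate 1 (0.46, adjusted p = 0.199), 2 (0.68, adjusted p = 0.0554) or 3 (0.66, adjusted p = 0.0621) and without Lok1 28 DAA replicate 1 (0.45, adjusted p = 0.188) or 3 (0.64, adjusted p = 0.0728). In Sonalika the difference of -0.56 between 14 and 28 DAA had an adjusted p of 0.0490 and lost its call in 25 of 36 such fits, which then gave adjusted p up to 0.196 (without Sonalika 14 DAA replicate 2, -0.45). The 2 probe sets of PER1 had an r of 0.45 with each other.

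As a test of any difference between the 3 stages over both classes of quality, all 5 probe sets passed, beside 57.4% of all probe sets. For the 4 from the study's list this outcome was largely fixed beforehand. That list held only probe sets past the study's own analysis of variance on these same arrays, most of them for seed development. Their adjusted p is therefore a description, and the share of all probe sets is no fair comparison for them. The adjusted p was 1.71e-15 for Ta.14503.1.S1_at of PER1, 9.25e-07 for peroxidase 1, 0.000322 and 0.00115 for Ta.23366.2.S1_x_at and Ta.23366.2.S1_at of peroxidase 66, and 0.0108 for Ta.24688.2.S1_a_at of PER1. With the mean of each variety as the unit, Ta.14503.1.S1_at of PER1 (adjusted p = 0.000130) and peroxidase 1 (adjusted p = 0.0121) passed, while peroxidase 66 (0.169 and 0.237) and Ta.24688.2.S1_a_at of PER1 (0.156) did not. Without the arrays labelled Lok1 7 DAA, Ta.23366.2.S1_at of peroxidase 66 had an adjusted p of 0.0570. In that fit the good class at 7 DAA is C306 alone, so that the stages also differ in their varieties. With cyclic loess normalization Ta.14503.1.S1_at of PER1 had an adjusted p of 0.333.

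**Figure D4:**
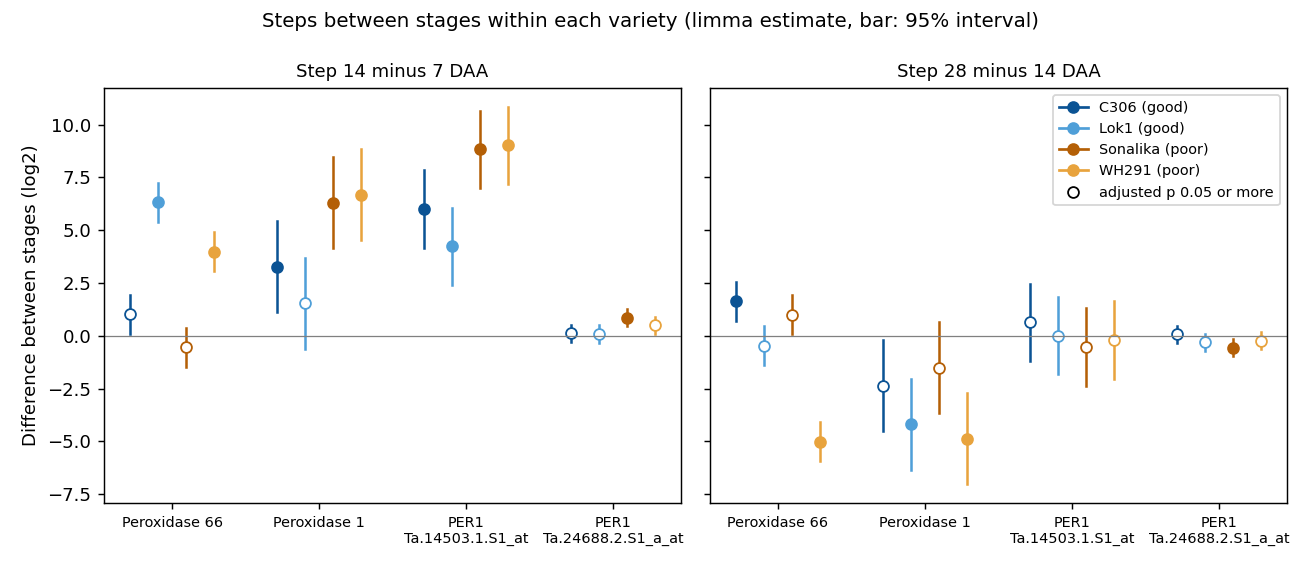
Steps between stages within each variety (log2, y axis) for the 3 genes (x axis, with both probe sets of PER1 and Ta.23366.2.S1_at for peroxidase 66), as limma estimates with 95% intervals. Filled points passed the test. From 7 to 14 DAA, PER1 (Ta.14503.1.S1_at) rose in all 4 varieties, by 4.23 in Lok1 up to 9.03 in WH291. Peroxidase 1 rose in 3 of them. The steps of peroxidase 66 ran in different directions between varieties. All steps of Lok1 and WH291 from 7 to 14 DAA use the arrays that went against their labels.

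The probe set most like Ta.14503.1.S1_at of PER1 had an r of 0.990 and no name in the sources used here. The named probe sets with the highest r were tonoplast intrinsic protein 3;1, a water channel of storage vacuoles (0.987), Globulin-1 S allele, a storage protein (0.986), LEA1, a late embryogenesis abundant protein that accumulates as seeds dry (0.964), the xylanase inhibitor xipI (0.917) and an alpha/beta-gliadin (0.914). Over the 30 arrays without the doubtful ones they were between 0.925 and 0.988. An r above 0.9 was found for 258 of 60129 probe sets, of which 7 had a name. The markers of the maturing embryo and aleurone had a median of -6.62 at 7 DAA, -0.96 at 14 DAA and 0.87 at 28 DAA over 12 probe sets, and their median at 14 DAA was -2.84 in C306 and -2.15 on the arrays labelled WH291 14 DAA, against 1.10 in Lok1 and 0.90 in Sonalika. This list was matched by name and includes globulins. It thus holds Globulin-1 S allele, named above, and the 19 kDa globulin, so it does not stand for embryo and aleurone alone. The part of these markers in the values of PER1 was not tested.

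The highest r of named genes with Ta.23366.2.S1_at were 0.730 for LTP3, a lipid transfer protein, 0.651 and 0.650 for 2 probe sets annotated as gamma-gliadin, 0.579 for one more of these and 0.572 for a universal stress protein A-like protein. An r above 0.9 was found for 11 of 60129 probe sets, 1 of them with a name, which was the second probe set of peroxidase 66. For Ta.24688.2.S1_a_at of PER1, 0 of 60129 reached 0.9, and the highest named values were 0.615 for a Bowman-Birk trypsin inhibitor and 0.612 for a second trypsin inhibitor, proteins that block digestive proteases. Between genes, r was 0.64 for peroxidase 1 with Ta.14503.1.S1_at of PER1, 0.36 for peroxidase 66 with the same PER1 probe set and 0.26 for peroxidase 66 with peroxidase 1.

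Besides the members, 12 probe sets of other genes of peroxide and redox metabolism were named on the array, for thioredoxin Trx-M, glutathione transferase GSTZ1, catalase CAT1, Prx1 (synonym TaPrx1), lactoylglutathione lyase and S-formylglutathione hydrolase. Of these, 10 of 12 changed with seed development, beside 57.4% of all probe sets, and from 7 to 28 DAA, as a mean over both classes, 4 rose and 5 fell (beside 23.0% and 25.1%). Their median step was -0.68, beside -0.00 over all probe sets. GSTZ1, a zeta class glutathione transferase of tyrosine breakdown, rose with each of its 3 probe sets, by 2.25 (SE 0.12, adjusted p = 2.11e-16), 2.00 and 1.05. The CAT1 probe set TaAffx.80209.1.S1_at rose by 0.45 (adjusted p = 0.00112), while Ta.442.1.S1_at of CAT1, which was named after its value was seen, fell by 0.83 (adjusted p = 0.00861). The fall of CAT1 did not pass with cyclic loess (-0.61, adjusted p = 0.0529) or variety means (adjusted p = 0.0575), nor did its rise with variety means (adjusted p = 0.0511). Catalase breaks down hydrogen peroxide without a second substrate.

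Among the redox probe sets past the test with all arrays, the largest falls belonged to Prx1 and Trx-M. Prx1 fell by 3.55 (SE 0.39, adjusted p = 1.86e-09), 2.81 (adjusted p = 1.84e-08) and 1.89 (adjusted p = 1.05e-05) with 3 of its probe sets, and with Ta.6572.3.S1_at, named after its value was seen, the step was 0.08 (adjusted p = 0.607). Trx-M, an m-type thioredoxin of plastids, fell by 1.52 (adjusted p = 3.29e-05). These directions were the same with quantile and cyclic loess normalization. Without the arrays labelled Lok1 7 DAA the steps were -4.11, -3.22 and -2.09 for Prx1, -1.66 for Trx-M, 2.39, 2.06 and 1.17 for GSTZ1 and 0.52 and -0.93 for CAT1, all past the test, and 9 of the 12 changed with seed development. In that fit the good class is C306 alone at 7 DAA and C306 with Lok1 at 28 DAA. Its steps thus also hold differences between C306 and Lok1. When all arrays of Lok1 were left out, these steps kept their directions and passed too. S-formylglutathione hydrolase and lactoylglutathione lyase, likewise named after their values were seen, had steps of -0.52 and -0.85, and 1.4 and 0.58 without the arrays labelled Lok1 7 DAA, none of which passed. They were -0.35 and 0.54 without all arrays of Lok1, and neither passed. With cyclic loess the step of S-formylglutathione hydrolase was -5.30 (adjusted p = 4.25e-05). Prx1 was highest at 7 DAA, where Ta.6572.1.S1_at averaged 2.78 in C306 and 0.54 on the arrays labelled Lok1, against 2.71 in Sonalika and 4.40 in WH291.

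**Figure D5:**
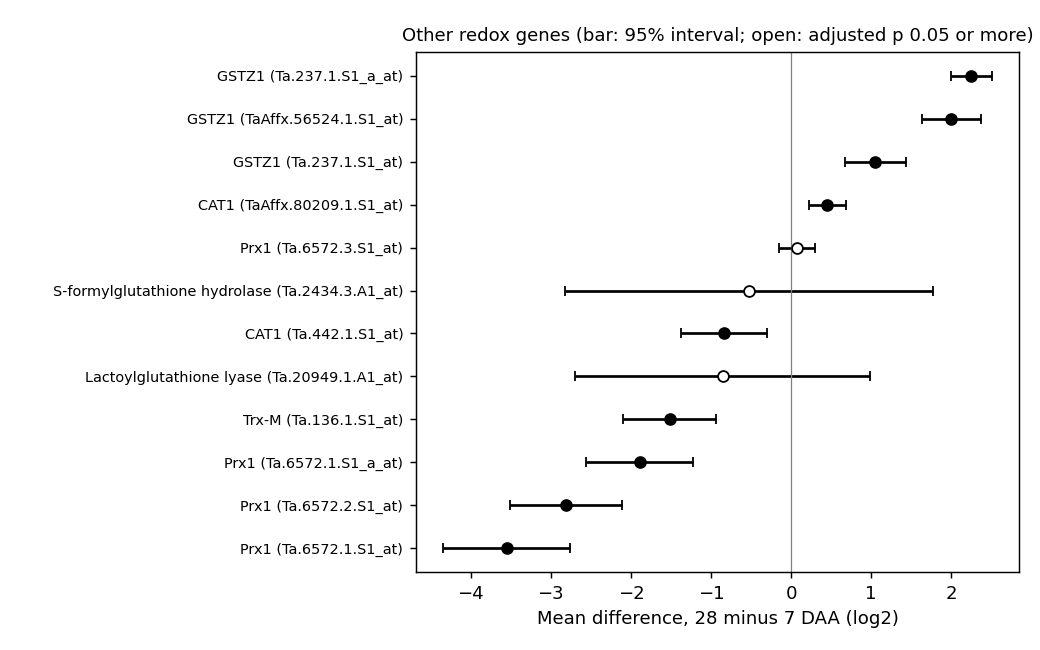
Mean difference of 28 minus 7 DAA over good and poor varieties (log2, x axis) for the 12 probe sets of other redox genes (y axis, ordered by size), with 95% intervals; filled points passed the test. Prx1 fell by up to 3.55 and GSTZ1 rose by up to 2.25.

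Between good and poor varieties at 7 DAA, 5 of the 12 passed, 1 higher in the good varieties and 4 lower, beside 6.58% and 6.31% of all probe sets, and 0 passed at 14 and 28 DAA. The one that was higher was a GSTZ1 probe set (0.62, adjusted p = 0.0175), and the lower ones were Trx-M (-1.79, adjusted p = 0.00264) and 3 probe sets of Prx1 (-1.94, -1.89 and -1.73). Without the arrays labelled Lok1 7 DAA, which leaves C306 alone as the good class, none of these 5 passed, with Trx-M at -1.51 (adjusted p = 0.0590), the 3 of Prx1 between -1.33 and -0.77 (adjusted p between 0.158 and 0.472) and GSTZ1 at 0.34 (adjusted p = 0.367). Then 1 other probe set passed, that of S-formylglutathione hydrolase, an enzyme of formaldehyde removal, with -7.63, which the study's list had chosen on these arrays. This probe set averaged between -7.18 and -6.95 in C306 and between -0.46 and 0.67 in the groups of the other varieties. With the mean of each variety as the unit, 0 of 12 passed, and 3 of the 5 passed with quantile normalization (Trx-M and 2 probe sets of Prx1). GSTZ1 was then 0.23 (adjusted p = 0.718), and 0.27 with cyclic loess (adjusted p = 0.558).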

How the data were processed

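Whole caryopses of 4 wheat varieties at 3 stages were measured on 36 Affymetrix arrays. The deposited values are log2 signals, which the authors obtained by RMA in GeneSpring 11.5.1 and centred on the median of each probe set, so that every probe set has a median of 0. The arrays give no counts, and their number (3 a group) limits the precision. Replicates were separate field replications, and in comparisons of groups of variety and stage the p-values measure the spread between them. In comparisons of classes of quality, or of stages over both classes, each group holds 2 varieties when all arrays are used. The spread there also includes the difference between these varieties. All 61290 probe sets were read, 111 of them controls. A probe set was kept where all 6 arrays of at least 1 class and stage reached the 20th percentile of their own array, on the centred values, and 60130 were kept. Linear models were fitted with limma 3.58.1 in R 4.3.3, once with 6 groups of quality and stage and once with 12 groups of variety and stage, with Benjamini-Hochberg adjustment over all kept probe sets and a threshold of 0.05. The script was tested on simulated data. Tables were made with Python 3.11.15, pandas 2.3.3 and numpy 2.4.6.

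The array annotation gave 1 gene symbol for 1273 probe sets, none for 60017 and several for 0. Of these, 1272 matched RefSeq by gene ID. Named are all members, the 5 named probe sets with the highest Pearson r to each, and, of 12 other redox probe sets, the 4 with the largest rise and the 4 with the largest fall among those past the seed development test, while other redox probe sets were named after their values were seen. Marker lists were endosperm, maturing embryo and aleurone, dividing cells and green pericarp. The members and lists were chosen with earlier results of these data known. Alternatives were other filters, quantile and cyclic loess normalization, array weights, a replicate block, variety as a random block or as the unit, single stages or varieties, and leaving out arrays, varieties or the groups that went against their labels. Both normalizations were run on the centred RMA values. No sequence was used here.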

Additional observations from a re-analysis of the deposited data

Results flagged for a closer look

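A sample far from the others was found in 2 of 30 groups of 6 arrays, each of 1 class and stage, where the gap to the nearest array, as a share of the range, exceeded Dixon's 95% critical value, which chance reaches in about 1 in 20 groups. In peroxidase 1 the lowest array of the poor varieties at 14 DAA was WH291 replicate 3 with 0.83, and in PER1 (Ta.14503.1.S1_at) the lowest array of the good varieties at 14 DAA was C306 replicate 1 with -1.57.

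A difference between varieties of the same class in their steps between stages passed the test in 7 of 20 comparisons over the members, all 7 in peroxidase 66. From 7 to 14 DAA the step of C306 minus that of Lok1 was -5.30 with Ta.23366.2.S1_at (limma, adjusted p = 2.22e-06, beside 3.94% of all probe sets) and -4.36 with Ta.23366.2.S1_x_at. The step of Sonalika minus that of WH291 in the same interval was -4.54 with Ta.23366.2.S1_at (adjusted p = 2.94e-05, beside 6.59%) and -3.69 with Ta.23366.2.S1_x_at. From 14 to 28 DAA, Sonalika minus WH291 was 6.02 with Ta.23366.2.S1_at (adjusted p = 3.16e-07, beside 5.25%) and 4.38 with Ta.23366.2.S1_x_at. All 6 of these rest on the arrays labelled Lok1 7 DAA or WH291 14 DAA and cannot be formed without them. The remaining one, C306 minus Lok1 from 14 to 28 DAA in peroxidase 66 (Ta.23366.2.S1_at), was 2.10 (adjusted p = 0.0492, beside 5.81%), and without those 6 arrays its adjusted p was 0.0449. It lost its call in 25 of 36 fits that left out 1 array each.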

How the results depend on the processing

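Quantile normalization moved the good minus poor difference at 7 DAA to 2.57 in peroxidase 1 and 1.51 in PER1 (Ta.14503.1.S1_at), and cyclic loess moved that of PER1 to 1.61. Cyclic loess turned the steps of PER1 (Ta.14503.1.S1_at) to -0.19 in C306 from 7 to 14 DAA and -1.23 from 7 to 28 DAA, to -0.52 and -0.45 in Lok1, and gave 1.22 for WH291 from 7 to 14 DAA (adjusted p = 0.185). Fitted on centred values, it can take away a rise that many probe sets share. Quantile normalization turned the step of Lok1 from 14 to 28 DAA in peroxidase 66 (Ta.23366.2.S1_x_at) to -1.41. Good minus poor in peroxidase 66 at 28 DAA was 5.29 without C306, 6.52 without Lok1, 6.60 without Sonalika and 5.21 without WH291. With the arrays of 28 DAA alone, Sonalika minus WH291 in peroxidase 1 was 3.84 (adjusted p = 0.0901). Of the redox list, 6 probe sets passed for seed development with variety means. For good minus poor at 7 DAA, quantile normalization left 3 of the redox list, variety means 0, leaving out the arrays labelled Lok1 7 DAA (alone or with those labelled WH291 14 DAA) 1, leaving out Lok1 1 and leaving out WH291 0. The cause was not tested for any of these. Leaving out 1 array at a time gave -3.85 (without Lok1 7 DAA replicate 3) to -0.63 (without Lok1 7 DAA replicate 2) for C306 minus Lok1 at 7 DAA in PER1 (Ta.14503.1.S1_at), which uses the doubtful arrays labelled Lok1 7 DAA. It gave 3.25 to 4.80 for Sonalika minus WH291 at 28 DAA in peroxidase 1, and 3 (replicate 2 of either Lok1 or WH291 at 7 DAA left out) to 6 probe sets of the redox list for good minus poor at 7 DAA. The replicate numbers did not pair the arrays: 41 of 198 same-numbered pairs had an r over 0.1, and 13 of 36 arrays correlated best with their own number. With the replicate number as a block, 194 of 198 results counted as unchanged. Among these, differences between good and poor varieties in the 4 probe sets from the study's list were judged by size, not by a threshold. The block cannot move an estimate when every group holds each replicate number, so for these the outcome was fixed beforehand. The other 4 results crossed the threshold. In Ta.24688.2.S1_a_at of PER1 they were Sonalika from 14 to 28 DAA (-0.56, adjusted p = 0.0598) and C306 minus Lok1 at 28 DAA (0.60, adjusted p = 0.0524). In peroxidase 66 they were the step difference of C306 minus Lok1 from 14 to 28 DAA with Ta.23366.2.S1_at (2.10, adjusted p = 0.0511) and with Ta.23366.2.S1_x_at (1.91, adjusted p = 0.0407). The centred values hide whether signals lay above background, which limits the low values at 7 DAA most.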
